A study of Rattus norvegicus with 9 samples.

Results

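The 6 femur libraries of rats outside the control group, 3 from ovariectomized rats and 3 from rats given the herb Desertliving Cistanche, were pooled as one group and compared with the 3 control libraries, so that all 9 libraries of the series were used. The comparison asks which differences from control the ovariectomized and the treated rats have in common. All rats are labelled wild type (WT) and all samples femur. The control labels name the SD (Sprague-Dawley) strain, and the labels of the other groups give no strain. The series title puts the herb, a plant of traditional Chinese medicine, in rats without ovaries as a model of osteoporosis after the menopause; by that title the pooled rats share ovariectomy and differ in the herb, while the sample labels of the treated group name only the herb. The sources used here give no age, dose or length of treatment and no sham operation of the controls, so removal of the ovaries and surgery itself cannot be told apart.

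Oestrogen restrains the formation of osteoclasts, the cells that resorb bone, partly through the balance of the cytokine RANKL and its decoy receptor osteoprotegerin, and its loss leads to bone loss in rats. Osteoblasts, which lay down bone, and adipocytes of the marrow arise from common stromal precursors, and marrow fat is known to expand after ovariectomy. A whole femur also holds blood-forming marrow, cartilage and any muscle left attached.

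Libraries held 54992823 to 66531156 counts, and 13886 of 32623 gene rows had a mean of at least 1 FPKM (a level scaled for gene length and sequencing depth) and were tested. Markers of bone (Col1a1, 173.6 to 1057 FPKM), of red cells (Hbb, 25190 to 94260 FPKM) and of muscle (Acta1, 50.8 to 1515 FPKM) were all present. Some libraries stood apart within their group. Control replicate 3 had the lowest adipocyte levels and the highest cartilage levels, and treated replicate 2 lay nearest the controls in both. Control replicate 1 had the lowest and ovariectomized replicate 3 the highest muscle levels, control replicate 2 had the most haemoglobin RNA, and ovariectomized replicate 1 alone had high interferon-response genes. Since no label says that the libraries come from different animals, the p-values reflect only how these libraries vary, which may be technical. In bulk tissue, fewer cells of a type and less RNA per cell cannot be told apart.

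Genes of fat cells were higher in the pooled libraries and genes of bone, cartilage and red cells lay on the lower side, but no single gene passed the test over all genes. With edgeR's quasi-likelihood test and Benjamini-Hochberg adjustment, 0 of 13886 genes (0%) passed an adjusted p of 0.05, the smallest adjusted p being 0.174; at an unadjusted p under 0.05 there were 509 higher genes (3.67%) and 451 lower genes (3.25%). On FPKM values, limma passed 0 genes (1238 at an unadjusted p under 0.05), and DESeq2 on the counts passed 95, of which 67 were higher (0.483%) and 28 lower (0.202%). Leaving out control replicate 1 gave 4 genes in edgeR, treated replicate 2 gave 2, and control replicate 3 or ovariectomized replicate 3 gave 1 each. The count of genes whose 6 pooled libraries all lay above the 3 controls was 250 (1.8%). That of genes whose 6 all lay below was 182 (1.31%), or 432 (3.11%) in either direction. Were the group labels random, a gene would lack overlap in 2 of the 84 possible splits, a fraction of 0.0238 over both directions. How many of the 432 arise in that way was not tested. Estimates were split evenly, 49.9% of all genes being on the higher side with a median log2 fold change of -0.0002.

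The pooled groups did not differ from each other past the threshold either. In the contrast of treated with ovariectomized rats edgeR passed 0 genes (722, or 5.2%, at an unadjusted p under 0.05; smallest adjusted p 0.581) and DESeq2 passed 38, of which 10 (0.072%) were higher and 28 (0.202%) lower in treated rats. Without control replicate 2 edgeR passed 2 genes, and without control replicate 1 or treated replicate 2 it passed 1. A missed threshold does not show that both groups are alike, so each group's own difference from control is given beside the pooled value. Those differences share the control libraries, and any likeness between them includes that shared part.

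Leading genes are the 12 in each direction with the smallest unadjusted p among those of at least 1.5-fold whose groups did not overlap; 93 higher and 57 lower genes met that fold without overlap. First among the higher ones was Pim3, a serine/threonine kinase that promotes cell survival (chromosome 7, 129860114 to 129863441, plus strand, in the coordinates of the deposited table, for which the sources used here name no genome build). Levels are given as CPM, counts scaled to a common library size. Pim3 stood at 16.1, 16.6 and 16.6 CPM in the controls and at 22.5 (lowest), 24.9 (median) and 27.9 CPM (highest) in the pooled libraries. The groups did not overlap, and the controls were nearly level. Its log2 fold change was 0.61 ± 0.09 (SE), or 1.53-fold, with an edgeR adjusted p of 0.191; it was 0.55 in ovariectomized and 0.67 in treated rats.

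Kcnn3, a calcium-activated potassium channel, had 3.13, 2.97 and 1.55 CPM in controls and 4.91, 7.15 and 9.20 CPM as the pooled lowest, median and highest. The groups did not overlap, and the log2 fold change was 1.51 ± 0.28 (SE). Cav2, a caveolin of the cell membrane, was at 0.71 ± 0.15, also without overlap.

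Enzymes of fatty and amino acid breakdown stood among the leading genes. Phyh, which starts the peroxisomal breakdown of phytanic acid, had 36.3, 43.0 and 39.9 CPM in controls and 50.2, 62.7 and 73.8 CPM as the pooled lowest, median and highest. Aldh6a1, a mitochondrial enzyme of valine breakdown, had 42.6, 45.1 and 34.7 CPM in controls and 54.5, 63.1 and 78.8 CPM in the pooled libraries. Neither gene overlapped between the groups, and their log2 fold changes were 0.66 ± 0.11 and 0.67 ± 0.13 (SE). Pxmp2, a channel protein of the peroxisomal membrane, was at 1.34 ± 0.26. Aldh1a7, an aldehyde dehydrogenase, had the highest log2 fold change of the 12 leading genes, 3.43 ± 0.67. It had 0.133, 0.0848 and 0.490 CPM in controls and 0.907, 2.47 and 3.98 CPM as the pooled lowest, median and highest. That gene has few reads, and close relatives of its family could share some of them.

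Bnip3, a mitochondrial outer membrane protein that marks mitochondria for removal, had 19.9, 21.5 and 13.6 CPM in controls and 26.0, 38.4 and 45.0 CPM as the pooled lowest, median and highest. No pooled library reached down to the controls; the log2 fold change was 1.05 ± 0.20 (SE), with 1.14 in ovariectomized and 0.95 in treated rats. The related Bnip3l, which removes mitochondria from maturing red cells, was on the lower side at -0.27 ± 0.11. Pirb, an inhibitory receptor of myeloid and B cells, had 23.3, 14.01 and 20.9 CPM in controls and 25.7, 83.5 and 103 CPM as the pooled lowest, median and highest, a log2 fold change of 2.0 ± 0.40. Ovariectomized replicate 3, at 25.7 CPM, lay close to the controls, and the other 5 were at 78.6 CPM or above. Reads of Pirb may be split with near-identical relatives of its receptor family. Ubd, a ubiquitin-like modifier induced by inflammatory cytokines, was at 1.55 ± 0.30, with 0.516, 0.696 and 0.683 CPM in controls and 1.21, 1.81 and 2.84 CPM as the pooled lowest, median and highest.

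**Figure D1:**
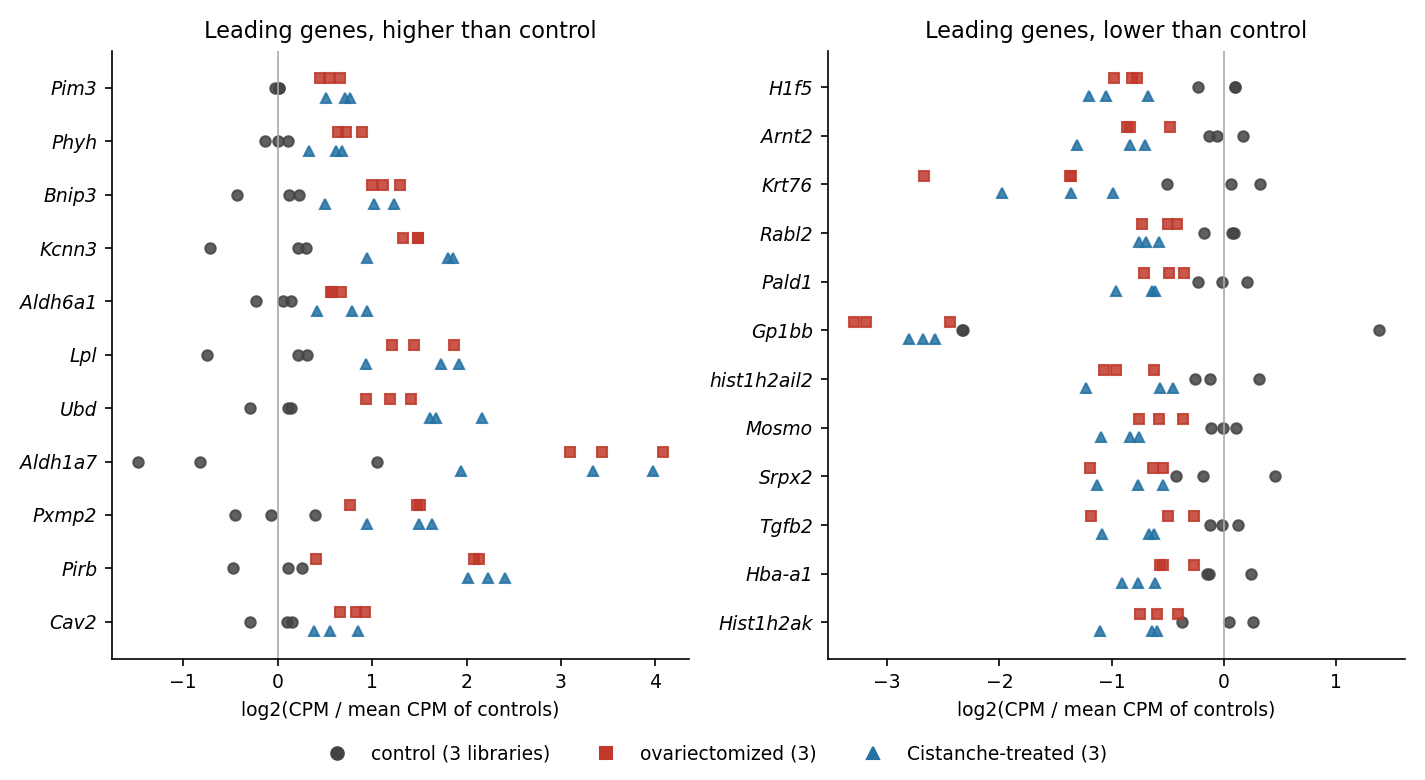
Level of the leading genes reported in each direction, as log2 of CPM over the mean CPM of the controls (horizontal axes), with 1 symbol per library. The higher genes (left) have every pooled library to the right of every control; the lower genes (right) have every pooled library to the left, and Gp1bb has 1 control far from the other 2.

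First among the lower genes was H1f5, a linker histone that compacts chromatin (chromosome 17, 44766313 to 44766981, plus strand). It had 5.91, 7.43 and 7.41 CPM in controls and 3.01, 3.72 and 4.32 CPM as the pooled lowest, median and highest. All 6 lay below all 3 controls, with a log2 fold change of -0.90 ± 0.15 (SE; edgeR adjusted p = 0.335), -0.85 in ovariectomized and -0.96 in treated rats. The histone genes hist1h2ail2 (-0.79 ± 0.21) and Hist1h2ak (-0.66 ± 0.19) were also among the 12; histone genes have near-identical copies, and their poly(A) transcripts are a minor form, so the split of reads between copies is uncertain.

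Arnt2, a basic helix-loop-helix partner of several transcription factors, had 8.83, 8.38 and 10.4 CPM in controls and 3.72, 5.15 and 6.58 CPM as the pooled lowest, median and highest (log2 fold change -0.82 ± 0.17, SE). Krt76, a keratin of stratified epithelium, was at -1.52 ± 0.33, Rabl2, a small GTPase of cilia, at -0.60 ± 0.13, and Pald1, a phosphatase-like protein of vessels, at -0.62 ± 0.14. Mosmo, an attenuator of Hedgehog signalling, was at -0.71 ± 0.19 and Srpx2, a secreted sushi-repeat protein, at -0.78 ± 0.22. Tgfb2, a ligand of the TGF-beta family, had 16.6, 19.7 and 17.9 CPM in controls and 7.93, 11.6 and 15.1 CPM as the pooled lowest, median and highest, at -0.68 ± 0.19. Groups did not overlap for any of these. Gp1bb, a subunit of the platelet receptor for von Willebrand factor, rests on 1 library: its controls were at 2.93, 2.90 and 38.1 CPM and its pooled libraries at 1.49 to 2.71 CPM, and its log2 fold change of -2.80 ± 0.72 became -0.47 without control replicate 3.

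Lists of genes by cell type and pathway place these genes in context. For each, the count of members on either side and the median stand beside 49.9% higher and a median of -0.0002 over all genes. Members without overlap stand beside 1.8% of all genes higher and 1.31% lower. Of the 36 lists, the adipocyte list had the largest share of members without overlap. All 21 tested members were on the higher side, at a median of 1.10 on the log2 scale, and 13 of these (61.9%, against 1.8% of all genes) had every pooled library above every control. DESeq2 passed 6 of the 21, against 0.483% of all genes on that side. The median was 1.13 in ovariectomized and 1.12 in treated rats. A score per library, the mean over members of log2 CPM centred on all 9 libraries, was -0.31, -0.32 and -1.64 in controls, 0.57, 0.52 and 0.13 in ovariectomized and 0.52, -0.10 and 0.61 in treated rats. The lowest pooled library, treated replicate 2, was still above the highest control. Control replicate 3 was the lowest of all 9, and without it the median was 0.78.

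Lpl, the lipase that frees fatty acids from lipoproteins for uptake (chromosome 16, 22537056 to 22561496, minus strand), had 128, 136 and 65.2 CPM in controls against 210, 332 and 415 CPM as the pooled lowest, median and highest. Its means were 110 ± 38.5 CPM (SD, n = 3) and 323 ± 82.7 CPM (SD, n = 6). The log2 fold change was 1.56 ± 0.29 (SE), and no library overlapped. Retn, which encodes the adipokine resistin (chromosome 12, 2201891 to 2204249, plus strand), had 55.5, 51.6 and 23.2 CPM in controls and 77.0, 114 and 130 CPM as the pooled lowest, median and highest, at 1.33 ± 0.28. Pparg, the nuclear receptor that drives fat cell differentiation, had 22.6, 22.5 and 17.7 CPM in controls and 25.6, 35.1 and 38.5 CPM in the pooled libraries, at 0.66 ± 0.17. Gpd1, which makes the glycerol backbone of triglycerides, was at 1.28 ± 0.31, also without overlap. Adipoq, which encodes adiponectin, was at 1.22 ± 0.46, and there ovariectomized replicate 3 (175 CPM) lay below control replicate 1 (184 CPM).

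The other 9 genes without overlap, named after their values were seen, were Adrb3, Pck1, Thrsp, Plin1, Cidec, Adig, Plin4, Fabp4 and Lipe. Lipid droplet coat genes were among them: Plin1 spanned 22.7 to 116 CPM in controls and 130 to 268 CPM in the pooled libraries, and Cidec 10.4 to 42.0 and 48.9 to 91.4 CPM. Lipe, the hormone-sensitive lipase, spanned 28.8 to 56.2 CPM in controls and 59.96 to 124 CPM in the pooled libraries. Fabp4, the fatty acid carrier of fat cells, spanned 87.9 to 284 and 332 to 590 CPM. Control replicate 3 supplied the lowest value of each of these 4 genes. The smallest estimates of the list were those of Dgat2 (0.23), Cfd (0.35) and Cebpa (0.37), whose groups overlapped. Lep, the gene of leptin, had 0.446 to 4.31 CPM in controls and 1.71 to 8.41 CPM in the pooled libraries and also overlapped.

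**Figure D2:**
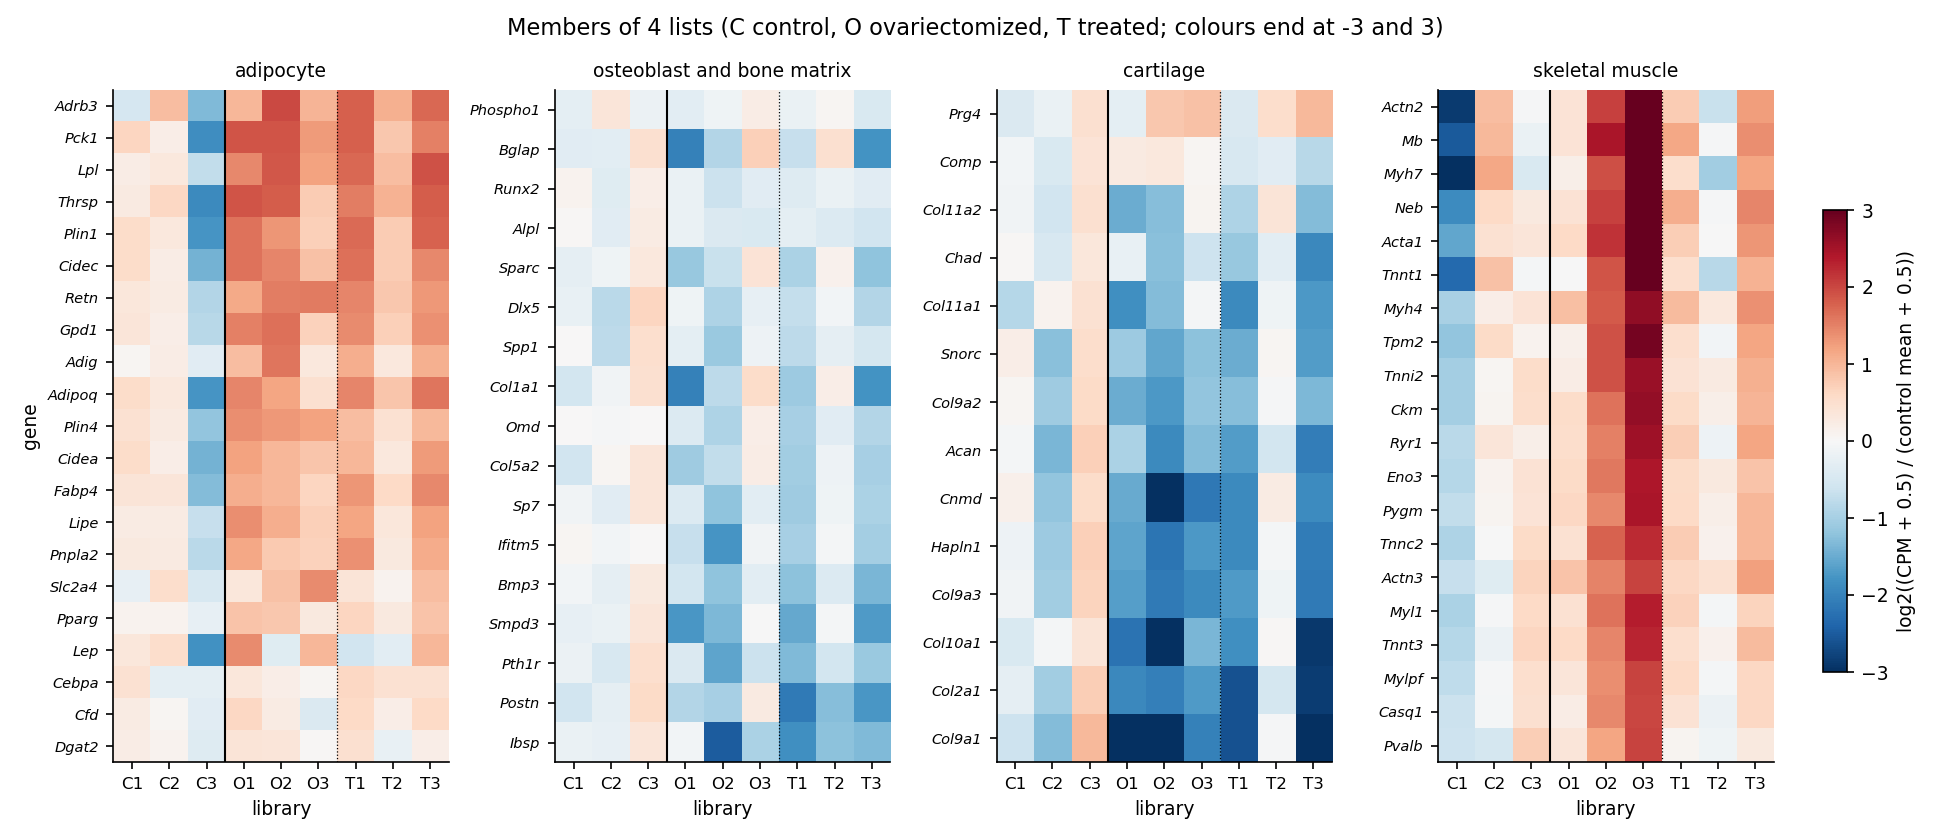
Members reported of the adipocyte, osteoblast, cartilage and skeletal muscle lists (rows) in the 9 libraries (columns), coloured by log2 of CPM plus 0.5 over the control mean plus 0.5. The adipocyte genes are red in all pooled columns for most rows, the muscle genes follow single libraries, and the cartilage genes of treated replicate 2 look like those of controls.

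Promoters of the adipocyte genes were searched because all tested members had higher estimates, 13 of them without overlap. Of the 21 tested members, 14 had a RefSeq promoter (250 bases before to 50 after the start, GRCr8). The letters AGGTCA, the core hexamer bound by many nuclear receptors including Pparg and the oestrogen receptors, occurred on either strand in 3 of 14 (Retn, Adig and Pck1) and in 11.8% of 9462 promoters of tested genes. The C/EBP core TTGCAA was in 1 (Retn) and in 4.57% of all. The direct repeat of that hexamer with 1 base between its copies, and the palindromic oestrogen response element with 3 bases between its arms, were in 0 of 14, and each in 0.0211% of all. Retn and Pck1, whose enzyme supplies glycerol for triglycerides in fat cells, are shown because both lay without overlap and hold the hexamer, at 169 and 7 bases before the start in Retn and 144 before it in Pck1 (first base of the match); capitals mark the hexamer and, in Retn at 68 bases before the start, the C/EBP core. The windows are chr12:6508524-6508823 and chr3:182348322-182348621, both on the plus strand.
Retn: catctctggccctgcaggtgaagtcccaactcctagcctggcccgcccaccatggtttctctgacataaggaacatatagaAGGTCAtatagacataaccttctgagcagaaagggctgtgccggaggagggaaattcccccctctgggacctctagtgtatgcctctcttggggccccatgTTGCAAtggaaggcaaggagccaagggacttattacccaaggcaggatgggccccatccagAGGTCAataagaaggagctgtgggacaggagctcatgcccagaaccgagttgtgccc
Pck1: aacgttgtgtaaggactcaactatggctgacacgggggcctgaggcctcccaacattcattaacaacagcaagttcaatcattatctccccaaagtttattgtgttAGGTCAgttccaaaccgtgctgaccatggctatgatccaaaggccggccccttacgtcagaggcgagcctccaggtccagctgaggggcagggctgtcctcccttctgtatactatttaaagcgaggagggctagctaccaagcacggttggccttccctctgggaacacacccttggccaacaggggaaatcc

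Fat-burning and fat-making enzymes differed less than the fat cell markers. Of 19 beta-oxidation genes 18 had higher estimates, with a median of 0.19, and 3 (15.8%, against 1.8% of all genes) did not overlap. These were Acsl1, which activates fatty acids, Hadh, a dehydrogenase of the cycle, and Acadm, the medium-chain dehydrogenase. Acsl1 had 250, 281 and 164 CPM in controls and 299, 452 and 583 CPM as the pooled lowest, median and highest (0.89 ± 0.24, SE). Hadh was at 0.44 ± 0.11 and Acadm at 0.30 ± 0.12. Of 16 genes of fatty acid and triglyceride synthesis 13 were higher, with a median of 0.28 and 0 without overlap. Scd, which puts the double bond into stearic acid, had 266, 352 and 166 CPM in controls against 345, 600 and 897 CPM in the pooled libraries (1.26 ± 0.34), so that treated replicate 2 lay just under control replicate 2. Dgat1, which closes triglyceride synthesis, was at 0.44 ± 0.18.

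Hypoxia, glycolysis and mitophagy genes had a median of 0.06, with 16 of 22 higher. Bnip3 was the 1 member wholly above the controls (4.5%, against 1.8% of all genes). P4ha1, a collagen prolyl hydroxylase, was the 1 wholly below (4.5%, against 1.31%), at -0.55 ± 0.14 (SE). All 13 genes of mitochondrial DNA had higher estimates with a median of 0.15. Mt-nd3, a subunit of complex I, was the 1 without overlap (7.69%, against 1.8% of all genes). It was at 294, 248 and 280 CPM in controls and 326, 366 and 433 CPM as the pooled lowest, median and highest (0.47 ± 0.10). Nuclear genes of oxidative phosphorylation were higher in 31 of 34, with a median of 0.07 and 2 (5.88%, against 1.8% of all genes) without overlap. The median of the mitochondrial DNA genes was 0.002 with the skeletal muscle score as a covariate and 0.09 without ovariectomized replicate 3, the library with the most muscle RNA; the part of muscle in these values was not tested.

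Skeletal muscle genes had the highest median of any list, 1.36, with all 20 tested members higher, yet 0 of 20 were free of overlap and DESeq2 passed 0. Its scores were -2.0, -0.37 and -0.30 in controls, -0.19, 1.11 and 2.05 in ovariectomized and 0.01, -0.70 and 0.40 in treated rats. Ovariectomized replicates 2 and 3 were the highest and control replicate 1 the lowest, and treated replicate 2 lay within the controls. Myh4, the fast myosin heavy chain, had 107, 243 and 281 CPM in controls and 261, 477 and 1330 CPM as the pooled lowest, median and highest (1.55 ± 0.54, SE). The list's median was 1.82 in ovariectomized and 0.64 in treated rats, and 0.89 without ovariectomized replicate 3. How much muscle each sample carried was not tested. With the muscle score as a covariate, the adipocyte median was 1.23 and the log2 fold changes of Lpl and Bnip3 were 1.60 and 0.91.

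**Figure D3:**
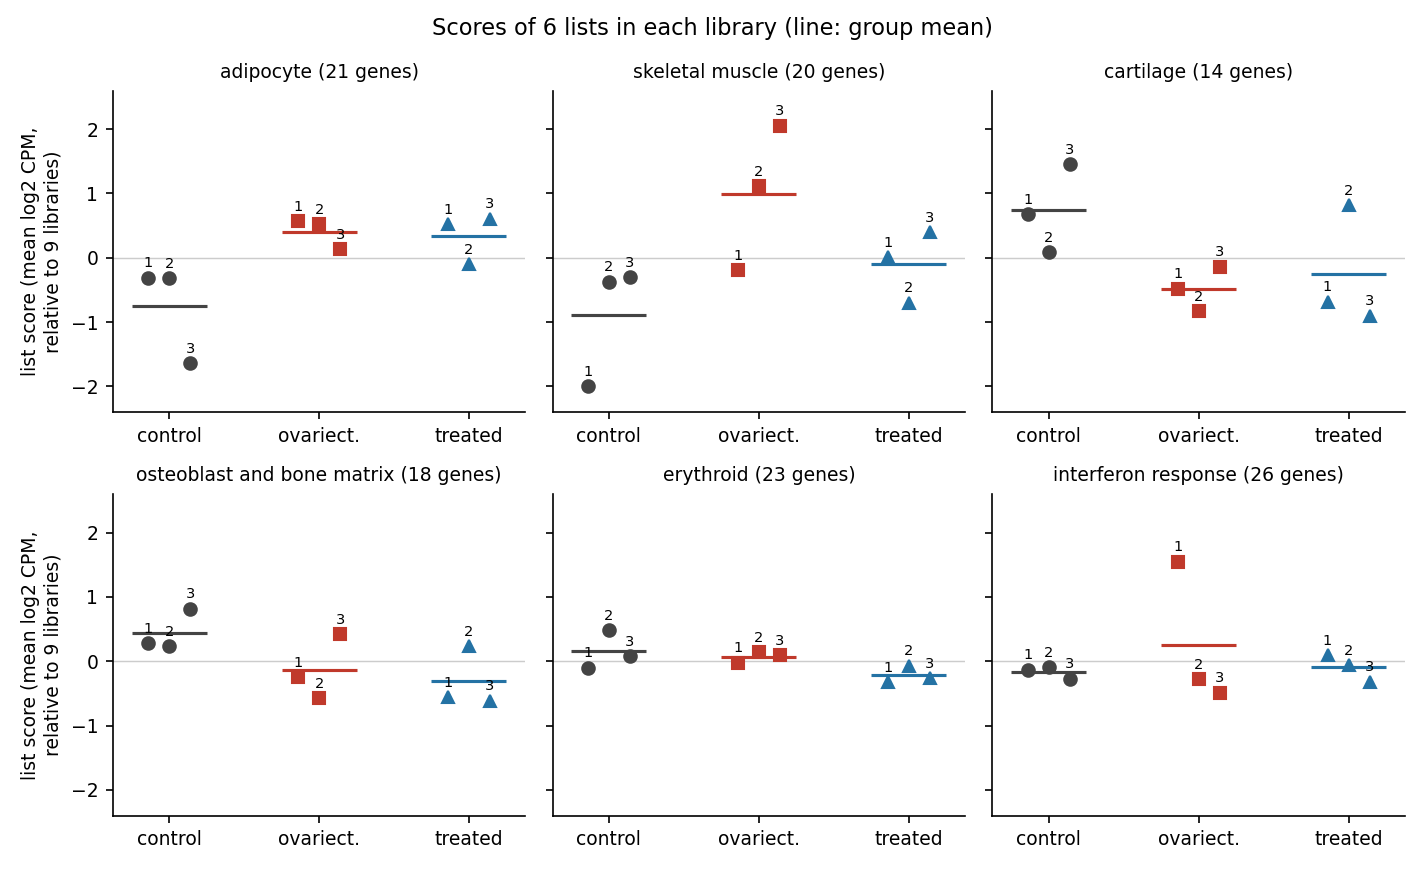
Scores of 6 lists (mean log2 CPM of members relative to the 9 libraries, vertical axes) in each library, numbered by replicate, with a line at each group mean. Only in the adipocyte panel, of the 6 shown, do all pooled libraries lie on one side of all controls; the other panels overlap.

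Bone-forming genes lay on the lower side as a list with modest values. Of the 18 tested osteoblast and bone matrix genes 18 had lower estimates, with a median of -0.53 (-0.42 in ovariectomized and -0.67 in treated rats), and 2 (11.1%, against 1.31% of all genes) did not overlap. Among the latter, Bmp3, an antagonist within the BMP family made by bone cells, had 10.8, 9.40 and 14.1 CPM in controls and 4.08, 6.14 and 9.14 CPM as the pooled lowest, median and highest (-0.83 ± 0.29, SE). Ibsp, the bone sialoprotein, had the lowest estimate of the list at -1.13 ± 0.43, with overlap. Without control replicate 3 the list's median was -0.36, with 17 of 18 members lower. In the list score, ovariectomized replicate 3 (0.42) lay above control replicates 1 and 2 (0.28 and 0.23).

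Several defining bone genes spread widely within groups. Col1a1, the main collagen of bone, had 2920, 3973 and 6014 CPM in controls and 1060, 2250 and 6334 CPM as the pooled lowest, median and highest, at -0.51 ± 0.56 (SE), so its estimate was within its error. Bglap, the gene of osteocalcin, was at -0.34 ± 0.59. Alpl, the alkaline phosphatase of mineralization, had 178, 137 and 208 CPM in controls and 117, 130 and 153 CPM in the pooled libraries (-0.39 ± 0.13), and Runx2, the master factor of osteoblasts, was at -0.35 ± 0.13; both overlapped. Pth1r, the parathyroid hormone receptor, was at -0.89 ± 0.29.

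Osteocyte genes, of the cells buried in bone, were lower in 11 of 12 with a median of -0.36 (-0.24 without control replicate 3) and 0 without overlap. Ptprz1, a receptor phosphatase, was at -0.90 ± 0.24 (SE), Phex, an endopeptidase that restrains phosphate loss, at -0.85 ± 0.33, and Sost, the Wnt inhibitor sclerostin, at -0.16 ± 0.42. Cartilage genes had the lowest median of the described lists, -1.20, with 13 of 14 lower and 0 of 14 free of overlap. Col2a1, the main cartilage collagen, had 419, 243 and 844 CPM in controls and 69.8, 126 and 350 CPM as the pooled lowest, median and highest (-1.73 ± 0.51). Treated replicate 2 was the one pooled library within the controls for this gene, and 5 of the 6 lay at 153 CPM or less. Acan, the proteoglycan aggrecan, was at -1.31 ± 0.44. The cartilage median was -0.73 without control replicate 3, the library with the most cartilage RNA, and -1.505 without treated replicate 2. How much growth plate or joint cartilage each sample held was not tested.

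Osteoclast genes were split, 5 higher and 9 lower of 14, with a median of -0.09 and 0 without overlap. Acp5, the tartrate-resistant phosphatase used as an osteoclast marker, had 262, 200 and 434 CPM in controls and 138, 186 and 336 CPM as the pooled lowest, median and highest (-0.45 ± 0.35, SE). Ctsk, the collagen-degrading protease cathepsin K, was at -0.30 ± 0.39, and without control replicate 3 its estimate was 0.07. Tnfrsf11b, which encodes osteoprotegerin, had 31.2, 13.9 and 26.9 CPM in controls and 6.45, 12.3 and 21.4 CPM in the pooled libraries (-0.94 ± 0.40); control replicate 2 lay among them. Its target Tnfsf11, the gene of RANKL, was under the filter at 0 to 87 counts a library. Traf6, which passes the RANKL signal on inside the cell, was the 1 of 9 tested members of that list without overlap (11.1%, against 1.8% of all genes). It was at 15.6, 14.9 and 17.3 CPM in controls and 17.8, 18.02 and 18.8 CPM as the pooled lowest, median and highest, a log2 fold change of 0.19 ± 0.07.

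Signalling genes of bone had medians near that of all genes. BMP and TGF-beta genes had a median of -0.07 (8 higher, 18 lower), with Tgfb2 the 1 of 26 without overlap (3.85%, against 1.31% of all genes). Wnt receptors, antagonists and targets had a median of -0.14 (5 higher, 15 lower; -0.04 without control replicate 3), among them Ctnnb1, the signal carrier beta-catenin, at -0.27 ± 0.09 (SE) and Frzb, a secreted antagonist, at -0.99 ± 0.39. Of 10 tested hormone receptors 8 were higher, with a median of 0.09. Ghr, the growth hormone receptor, was the 1 of these 10 without overlap, against 1.8% of all genes on that side. Its level was 46.3, 37.0 and 26.9 CPM in controls (log2 fold change 1.02 ± 0.25). The pooled lowest, median and highest were 50.3, 79.0 and 91.3 CPM. Oestrogen-responsive genes known from other tissues were split 7 to 6 with a median of 0.03 and 0 without overlap. Esr1, the main oestrogen receptor, had 40 to 233 counts a library and Esr2 0 in all 9, both under the filter; a count of 0 here says only that no read was assigned.

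**Figure D4:**
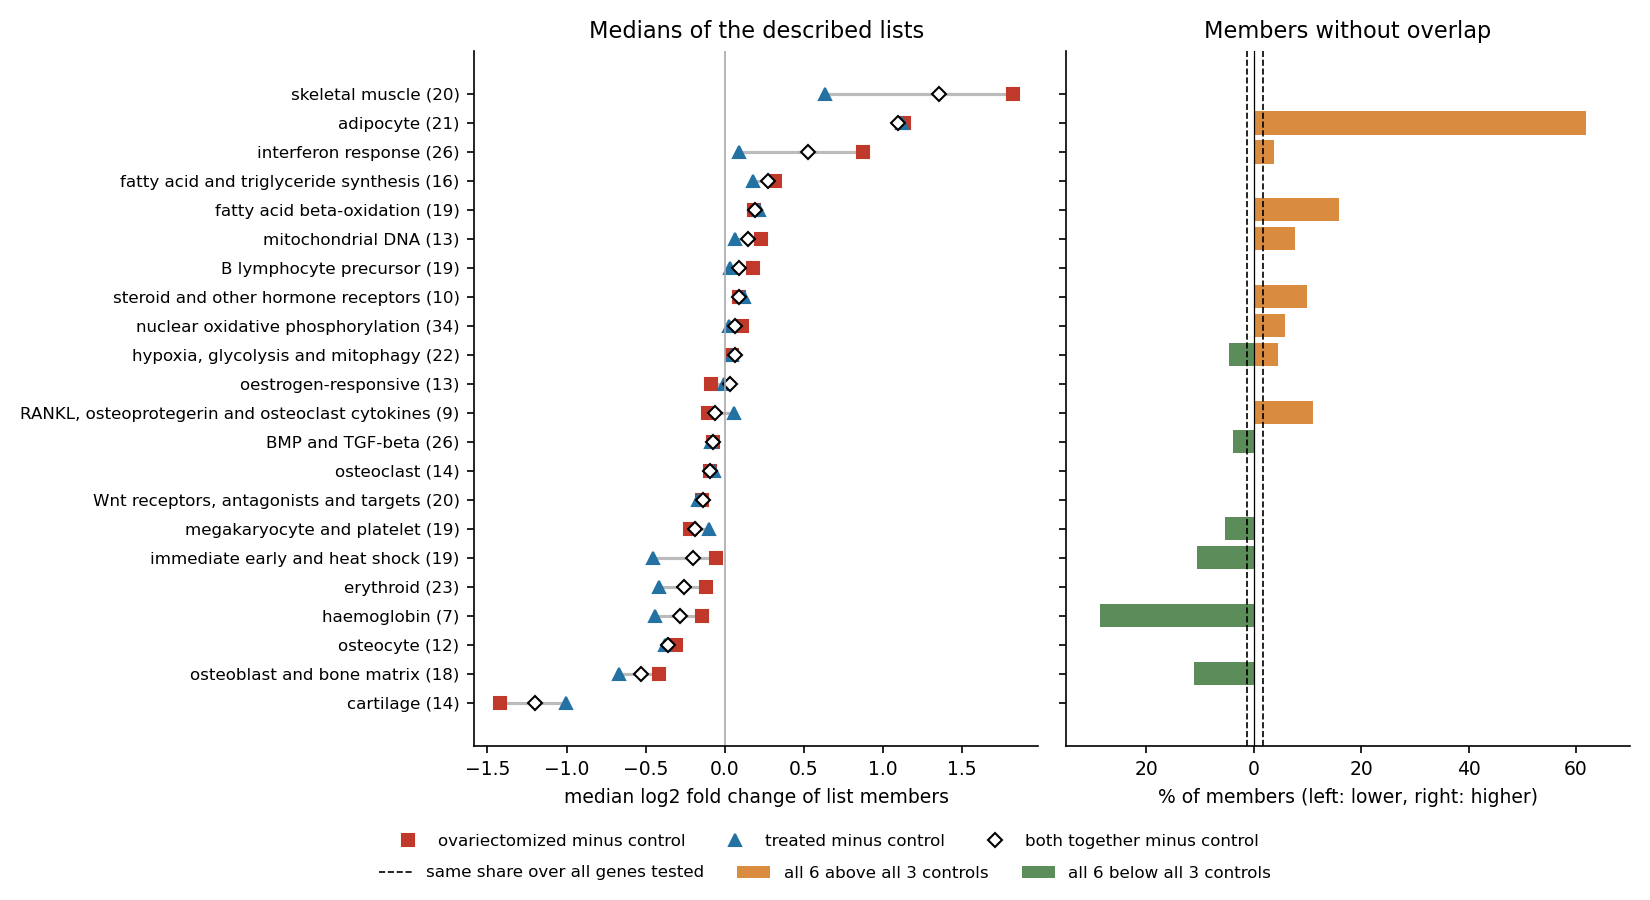
Median log2 fold change of the 22 described lists (left; tested members in brackets) in ovariectomized rats, treated rats and both together against control, and the share of members without overlap between the groups (right; dashed lines mark the share over all genes, 1.8% higher and 1.31% lower). The adipocyte list has 61.9% of its members above all controls, while muscle and cartilage have large medians and no such member.

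Haemoglobin RNA took a smaller share of counts in every pooled library. The share was 10.7%, 16.2% and 10.6% in controls (mean 12.5% ± 3.23, SD, n = 3), 8.56%, 10.1% and 8.41% in ovariectomized and 6.89%, 8.82% and 7.12% in treated rats (8.31% ± 1.18, SD, n = 6). The difference was -4.18 percentage points, with a 2-sided exact permutation p of 0.0238 over 84 splits, the smallest the design can give. The haemoglobin list was chosen with earlier results of these data known, so the p-values of this paragraph are not those of a test fixed before the data were seen. Control replicate 2 carried much of its size: without it the difference was -2.32 points (2-sided exact permutation p = 0.0714, the smallest that 2 controls allow), although the remaining controls still lay above all 6. For the beta-globin genes alone it was -1.81 points (2-sided exact permutation p = 0.0476).

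Hba-a1, an alpha-globin gene (chromosome 10, 15602794 to 15603649, minus strand), had 50020, 65470 and 50520 CPM in controls and 29510, 36770 and 46160 CPM as the pooled lowest, median and highest (-0.59 ± 0.17, SE). Hba-a2 was at -0.62 ± 0.20, also without overlap. These 2 of 7 haemoglobin genes (28.6%, against 1.31% of all genes) are near-identical copies that may share reads. Hbb had 68890 CPM in control replicate 2 against 17140 to 28390 CPM in all other libraries (-0.90 ± 0.30), and overlapped. The haemoglobin list had a median of -0.28, and of -0.48 without control replicate 3.

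Other genes of red cell formation were lower in 23 of 23, with 0 free of overlap: the median was -0.26, with -0.12 in ovariectomized and -0.42 in treated rats. Alas2, the first enzyme of haem synthesis in red cells, was at -0.45 ± 0.17 (SE). Gata1, the erythroid master factor, had 55.1, 72.9 and 62.5 CPM in controls and 47.2, 53.0 and 60.2 CPM as the pooled lowest, median and highest (-0.26 ± 0.11). For Gata1 the treated libraries were the 3 lowest and the ovariectomized libraries lay within the controls. The score of the erythroid list was -0.10, 0.48 and 0.08 in controls and -0.02, 0.14 and 0.09 in ovariectomized rats, the latter within the controls. It was -0.33, -0.07 and -0.26 in treated rats, whose replicate 2 lay above control replicate 1. With a library left out the erythroid median ran from -0.39 (without control replicate 1) to -0.06 (without control replicate 2). Ftl1, the ferritin light chain of iron storage, named after its values were seen, spanned 133 to 159 CPM in controls and 97.0 to 119 CPM in the pooled libraries (-0.38 ± 0.09). Of 19 megakaryocyte and platelet genes 16 were lower, with a median of -0.19 that became 0.03 without control replicate 2.

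**Figure D5:**
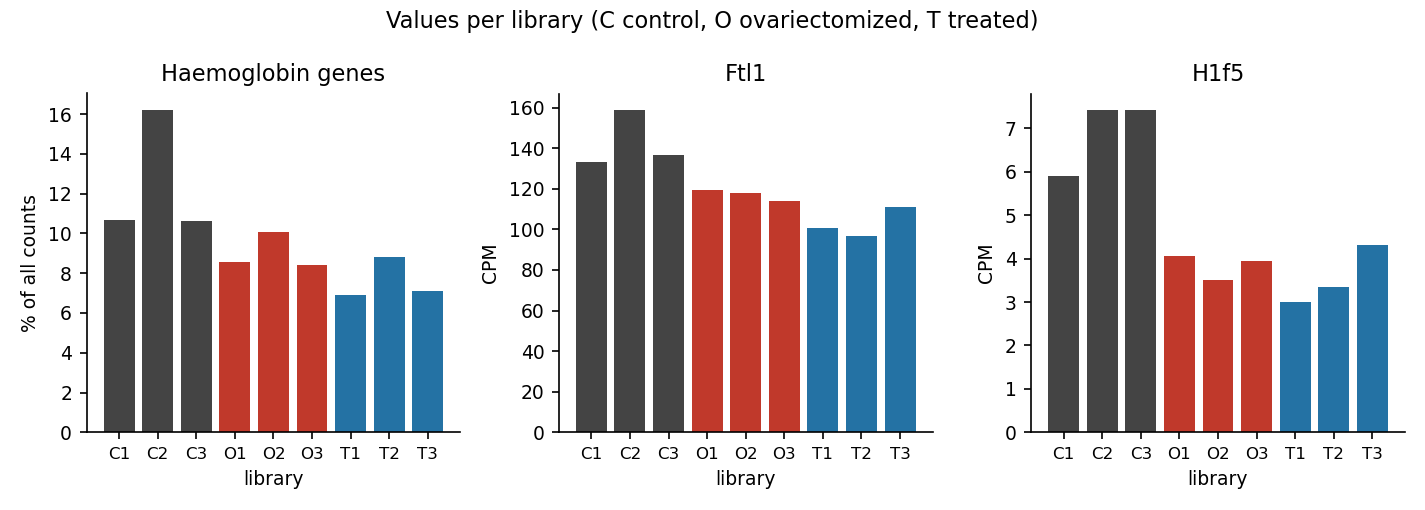
Share of all counts from haemoglobin genes (%), and CPM of Ftl1 and H1f5, in each library (bars from 0; C control, O ovariectomized, T treated, numbered by replicate). All 6 pooled bars are shorter than the 3 control bars in each panel, and control replicate 2 has the tallest haemoglobin bar, 16.2%.

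Among immune genes the pooled value often stood for 1 group or 1 library. Of 26 interferon-response genes 25 had higher estimates, with a median of 0.53, which was 0.87 in ovariectomized and 0.09 in treated rats and -0.07 without ovariectomized replicate 1. Ifi27, an interferon-induced mitochondrial protein, was the 1 member without overlap (3.85%, against 1.8% of all genes). It was at 31.5, 31.6 and 38.7 CPM in controls and 49.9, 62.3 and 162 CPM as the pooled lowest, median and highest (1.20 ± 0.38, SE). Mx2, an antiviral GTPase, had 91.7 CPM in ovariectomized replicate 1 and 8.26 to 15.2 CPM in the other 5 pooled libraries, against 8.45 to 13.6 CPM in controls. B lymphocyte precursor genes, which are known to expand in marrow after oestrogen loss, were higher in 17 of 19 by a median of 0.09 with 0 without overlap; Pax5, the B lineage factor, was at 0.06 ± 0.33. Il7, the cytokine of these precursors, was at -0.06 ± 0.26 and Cxcl12, the niche chemokine, at -0.13 ± 0.20.

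Immediate early and heat shock genes were lower in 14 of 19, with a median of -0.20 (-0.05 in ovariectomized and -0.45 in treated rats; -0.12 without control replicate 3). Egr1, a growth-responsive transcription factor, had 121, 125 and 120 CPM in controls, 115, 76.8 and 92.2 CPM in ovariectomized and 65.4, 62.6 and 52.5 CPM in treated rats (pooled -0.65 ± 0.21, SE). Dnajb1, a heat shock co-chaperone, also had no overlap, at -0.24 ± 0.08. These 2 were 10.5% of the list, against 1.31% of all genes. Treated rats were below ovariectomized rats for Egr1, by -0.65 ± 0.14, but this contrast had an edgeR adjusted p of 0.906 over all genes. The 14 lists not described singly had medians from -0.21 to 0.15. Of their 228 tested members 1 did not overlap (Pdk4, a brake on glucose oxidation, higher at 1.37 ± 0.53), against 1.8% of all genes on that side. Among them, all 27 cell cycle genes had lower estimates, with a median of -0.13 and 0 without overlap.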

How the data were processed

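Poly(A) RNA of rat femur was sequenced in 9 libraries, per the labels' protocols. The authors deposited whole-number counts and FPKM values per gene, per the file headers. Per the submitters' processing notes they used fastp, HISAT2 and StringTie, without versions; the sources used here give neither the build nor how counts were made. A count of 0 stands beside an FPKM of 0.0001. The members and lists were chosen with earlier results of these data known.

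Genes with a mean FPKM of at least 1 were fitted with edgeR 4.0.16 (quasi-likelihood, TMM; R 4.3.3), pooled against control over 9 libraries, with Benjamini-Hochberg adjustment over all 13886 genes. The common biological coefficient of variation was 0.265. A fit with 3 groups gave each group's own difference. CPM values are scaled by TMM factors; list scores use log2(CPM + 0.5). Genes named were the 12 leading genes in each direction (1.5-fold or more, no overlap, smallest p, as none passed the threshold), up to 4 members of each described list by smallest p, and a short set of bone, fat and marrow genes named whatever their values; a few of these genes are left out of the text. For symbols on several rows (1556) the row of highest mean FPKM was taken. The 36 lists hold 703 symbols, 612 of them tested. The haemoglobin share had an exact permutation test. Alternatives used DESeq2 1.42.0, limma 3.58.1 on log2(FPKM + 1) or log2(FPKM + 0.1), other scaling, filters, a replicate block, covariates and each library left out; the list and overlap counts were tried so after seeing the data. The model was tested on simulated data. Every pair of libraries differed beyond sampling noise (lowest chi-square per degree of freedom 79.61).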

Additional observations from a re-analysis of the deposited data

Results flagged for a closer look

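Of 112 levels looked at, 9 had 1 pooled library far from the other 5. For normally distributed values from 1 population, chance gives such a gap in about 1 group in 20. CPM values of 2 pooled groups need not follow that, and the levels looked at are not independent. Treated replicate 2 stood apart for the cartilage genes Col2a1, Col9a3 and Hapln1, where it was high at 350, 23.4 and 39.9 CPM. Ovariectomized replicate 3 was low for Pirb at 25.7 CPM and high for Pygm, the glycogen phosphorylase of muscle, at 280 CPM. Ovariectomized replicate 1 was high for the interferon-response genes Ifi27 (162 CPM), Ddx58 (21.2 CPM), Mx2 (91.7 CPM) and Ifit2 (117 CPM).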

How the results depend on the processing

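Of 2197 gene estimates under 20 alternatives, 2160 kept their direction and side of the threshold, 25 newly passed it (24 in DESeq2) and 12 turned direction. The count of genes passing in the pooled comparison was 95 with DESeq2, 1 with the replicate block and 0 to 4 with a library left out; for treated against ovariectomized rats it was 38 with DESeq2, 0 with the replicate block and 0 to 2 with a library left out. The sources used here do not say whether replicate numbers pair the libraries. Same-number correlations of deviations ran from -0.13 to 0.18, with 1 of 9 pairs over 0.1, and other-number ones from -0.17 to 0.14. These values show no clear pairing but cannot exclude it. Genes without overlap numbered 303 to 1045 higher and 223 to 885 lower with a library left out, which loosens the condition, and 280 lower with no filter; adipocyte genes numbered 13 to 17. The haemoglobin difference ran from -5.12 to -2.32 points with a library left out and was -8.08 as a share of FPKM. Estimates that turned direction were those of Pax5 (-0.273, -0.025 and -0.006 without control replicate 1, ovariectomized replicate 3 and treated replicate 2; -0.273 to 0.453 with a library left out), Il7 (0.127 and 0.012 without control replicate 2 and ovariectomized replicate 3; -0.224 to 0.127), Ctsk (0.073 without control replicate 3; -0.619 to 0.073) and Mx2 (-0.010 without ovariectomized replicate 1; -0.010 to 1.381). With the muscle score as a covariate Ms4a1 was at -0.140, Cox6a2 at -0.158, Cxcl12 at 0.045, Il7 at 0.068 and Pax5 at -0.290. List medians turned for megakaryocyte genes without control replicate 2 (-0.272 to 0.031 with a library left out), for interferon-response genes without ovariectomized replicate 1 (-0.071 to 0.672) and for erythroid genes with the erythroid score as a covariate (0.001), the last by construction; the cause of the others was not tested. For genes with many reads the spread between libraries, not counting error, limits the precision. For genes with few reads, such as Aldh1a7, counting error adds to it.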

Other observations

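Some gene groups from the annotation columns of the deposited table, picked after their values were seen and given as a description, add to the lists above. Of 45 gene rows for the breakdown of valine, leucine and isoleucine, 40 were on the higher side, at a median of 0.16 on the log2 scale (0.16 in ovariectomized and 0.20 in treated rats), and 12 (26.7%, against 1.8% of all genes) had all pooled libraries above all controls. Bckdha, a subunit of the branched-chain ketoacid dehydrogenase, spanned 30.5 to 40.9 CPM in controls and 42.1 to 48.2 CPM in the pooled libraries, and Dbt, its transacylase core, 27.0 to 31.8 and 33.7 to 45.6 CPM. Hibadh, further down the valine route, spanned 31.2 to 34.1 and 35.7 to 45.1 CPM, and Mccc2, of leucine breakdown, 20.2 to 21.3 and 22.2 to 30.4 CPM. Among the 12, estimates ran from 0.27 on the log2 scale for Ivd to 0.88 for LOC100911186, whose controls spanned 4.96 to 22.5 CPM.

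Genes of peroxisome organization were higher in 17 of 18 rows, 4 of them (22.2% of the rows, against 1.8% of all genes) without overlap. Pex11a, which drives the division of peroxisomes, spanned 6.79 to 9.57 CPM in controls and 11.5 to 18.9 CPM in the pooled libraries (0.92 ± 0.21, SE). Pex6, an ATPase that helps to recycle the import receptor, was at 0.28 ± 0.09. Of 41 rows annotated to the peroxisomal membrane 32 were higher, 9 (22.0%, against 1.8%) lay wholly above the controls and 1 (2.44%, against 1.31%) wholly below, the last being Pxmp4 at -0.34 ± 0.13. Of 30 histone gene rows 27 were lower, with a median of -0.42 and 5 (16.7%, against 1.31% of all genes) without overlap, H1f4 (-0.51 ± 0.13) and H1f5 among them. The annotated group for regulation of lipolysis in adipocytes was split, 30 higher and 18 lower of 48 rows with a median of 0.06, and 9 (18.8%, against 1.8%) lay wholly above the controls. Among these, Tshr, the thyrotropin receptor, spanned 8.87 to 13.96 CPM in controls and 17.3 to 31.3 CPM in the pooled libraries (0.94 ± 0.23).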
